A study of Mus musculus with 66 samples.

Results

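The genes described here are the 100 genes of the mouse female germ line whose transcripts were transiently highest at E16.5, a stage named by the embryonic day, out of 24062 genes measured. They were chosen from the E14.5, E16.5 and E18.5 libraries alone. Group means of log2(RPM + 1) were taken over 3 libraries per stage, where RPM is the number of reads per 1000000 reads of a library. Of the 9432 genes with a mean of 10 RPM or more at E16.5, the 100 with the largest excess of the E16.5 mean over the higher of the other means were kept. This excess is called the score below. Because those 9 libraries chose the genes, their values are given as a description and were not tested. The remaining 57 libraries took no part in the choice.

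The study followed female germ cells and oocytes in the ovary and in culture, and asked about low oxygen and Foxo3 in dormant oocytes. In vivo cells came from C57BL/6 x B6D2F1 mice whose ovaries carried a stella-ECFP(SC) reporter. They are labelled germ cells at E14.5, E16.5 and E18.5 and oocytes at postnatal days P1, P3, P4 and P6, with small and large oocytes separated at P4 and P6 and 3 libraries in each of these 9 groups. Cultured cells (strain C57BL/6 X 129/SvJ) were derived from mouse embryonic stem cells through Blimp1-mVenus-positive germ cell-like cells, which had been aggregated with frozen-thawed gonadal somatic cells of E12.5 embryos into reconstituted ovaries. Their 9 course groups had 3 libraries at D5, D7 and D9, at D10 and D11, and at D13, D15, D17 and D20 of culture. At D21, wild-type (WT) oocytes and oocytes carrying the Foxo3dNES transgene (Tg) were kept in normoxia or in hypoxia (5% O2), with 2 libraries in each of these 4 groups. The promoter of the transgene and the number of stem cell clones are not given in the sources used here. A further 4 D21 libraries without an oxygen label were not compared here, but were part of the model fitted to the D21 libraries.

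In the fetal ovary, germ cells stop dividing by mitosis and enter meiotic prophase, in which homologous chromosomes pair, form the synaptonemal complex and recombine. They arrest at the end of prophase around birth and are then enclosed in primordial follicles. Many genes known from the sperm tail, the cilium or the nervous system are also transcribed in germ cells, where a function in the oocyte is often not known.

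The start-site regions of 5 members are shown because they range from 0 to 33 CG among these genes, and because the last holds GTTGCCATG. This is 1 of the 7 motifs searched, and another, CCAAT, lies unmarked in the Akap3 and Arrdc3 regions. RefSeq (GRCm38.p6) gave 104 start-site windows for 77 of the 100 members, each covering 250 bases before and 50 bases after a transcript start. The 250 bases before a start are printed 5′ to 3′ on the strand of the gene. Capitals mark each CG dinucleotide in the first 4 sequences and the motif CATGGCAAC, the reverse complement of GTTGCCATG, in the last. Tsks, which encodes a substrate of testis-specific serine kinases, lies on the plus strand, and the start used is inside its annotated span. Akap3 encodes a sperm-tail anchor of protein kinase A, Ccnb3 encodes cyclin B3, Arrdc3 encodes an arrestin-family adaptor of membrane receptors, and Ccdc67 (current symbol Deup1) encodes a protein that builds deuterosomes, on which centrioles multiply.
Tsks, chr7:44942990-44943239, plus strand: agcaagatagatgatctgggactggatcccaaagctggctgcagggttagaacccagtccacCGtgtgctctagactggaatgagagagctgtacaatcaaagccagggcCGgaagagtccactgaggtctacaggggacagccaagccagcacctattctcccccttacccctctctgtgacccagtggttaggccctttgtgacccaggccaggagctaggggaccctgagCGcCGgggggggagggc
Akap3, chr6:126852848-126853097, plus strand: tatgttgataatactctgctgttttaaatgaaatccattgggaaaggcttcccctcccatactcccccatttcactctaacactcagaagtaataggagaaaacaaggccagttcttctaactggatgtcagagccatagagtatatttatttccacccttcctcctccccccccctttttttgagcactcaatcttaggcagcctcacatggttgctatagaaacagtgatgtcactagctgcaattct
Ccnb3, chrX:7041620-7041869, minus strand: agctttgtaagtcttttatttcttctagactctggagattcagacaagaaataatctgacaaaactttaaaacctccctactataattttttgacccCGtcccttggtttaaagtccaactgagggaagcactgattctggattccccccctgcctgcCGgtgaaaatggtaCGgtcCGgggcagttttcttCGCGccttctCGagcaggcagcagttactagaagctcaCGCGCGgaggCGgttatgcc
Arrdc3, chr13:80883134-80883383, plus strand: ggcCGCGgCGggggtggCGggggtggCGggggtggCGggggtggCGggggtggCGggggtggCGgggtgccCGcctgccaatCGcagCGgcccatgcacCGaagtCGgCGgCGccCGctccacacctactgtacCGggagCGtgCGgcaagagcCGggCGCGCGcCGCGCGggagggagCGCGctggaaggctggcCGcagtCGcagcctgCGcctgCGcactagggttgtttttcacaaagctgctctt
Ccdc67, chr9:15627847-15628096, minus strand: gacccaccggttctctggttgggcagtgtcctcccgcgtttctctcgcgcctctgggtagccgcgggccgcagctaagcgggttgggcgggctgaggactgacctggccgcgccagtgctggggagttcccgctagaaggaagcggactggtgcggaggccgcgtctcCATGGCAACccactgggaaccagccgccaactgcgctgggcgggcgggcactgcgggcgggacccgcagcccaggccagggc

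These regions differ in CpG content, and some members had higher values still, up to 1.18 in the window of Klf15. The 250 bases held 4 CG in Tsks, 0 in Akap3, 11 in Ccnb3 and 33 in Arrdc3. Observed over expected CpG, the number of CG divided by that expected from the C and G content, was 0.181 in Tsks, 0.767 in Ccnb3 and 0.957 in Arrdc3. Taking the highest window of each gene, the median over the 77 members was 0.567, and 40 of them (51.9%) had 0.6 or less. Among all 7653 genes with a window and 10 RPM or more at E16.5 the median was 0.841 and 13.8% had 0.6 or less. Among the 5307 of those genes under 100 RPM the share at 0.6 or less was 16.7%, and 15 of the 100 members were at 100 RPM or more. Among 27025 mouse genes with a window, expressed or not, the median was 0.415 and the share 61.7%. No test was made of this difference.

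**Figure D1:**
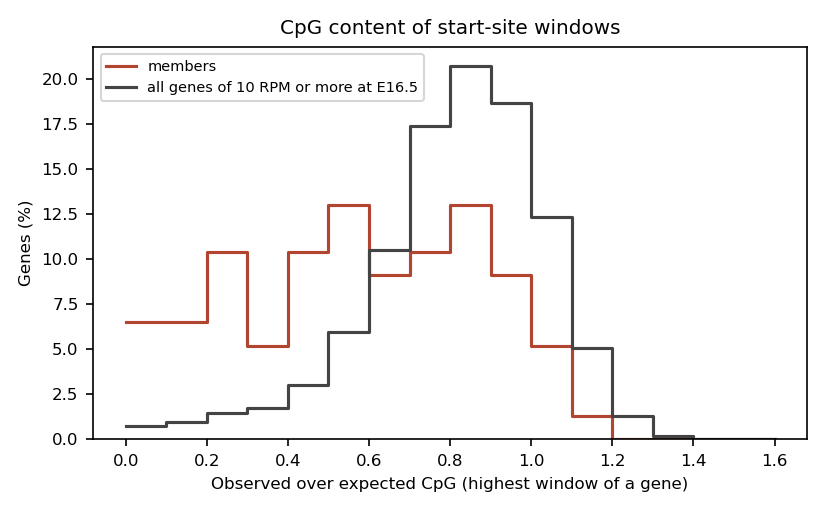
Share of genes (vertical axis, percent) by observed over expected CpG of their highest start-site window (horizontal axis, bins of 0.1), for members (red) and for all genes of 10 RPM or more at E16.5 (grey). The members spread from the lowest bin up to 1.2, with a median of 0.567. All genes of that level, members included, lie mostly above 0.6, with a median of 0.841.

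Short motifs were searched on both strands of each window. The motif GTTGCCATG, part of the palindromic motif of RFX factors, was found in 3 of 104 member windows (2.88%), those of Ccdc67, Ppm1e and 1700125H20Rik, against 0.667% of windows of the genes expressed at E16.5 and 0.773% of all 32851 windows. In the Ccdc67 sequence it starts 82 bases before the start. CACGTG was found in 10 member windows (9.62%, against 11.1% and 7.15%), CNCCTCAG, a motif known from STRA8, in 7 (6.73%, against 9.58% and 7.94%) and CCAAT in 34 (32.7%, against 38.0% and 37.4%). TGACGTCA was found in 2 (1.92%, against 3.56% and 1.79%), GCGCATGCG in 2 (1.92%, against 4.53% and 1.75%) and TTTCCCGC in 1 (0.962%, against 2.37% and 1.07%). No motif searched contains another. These matches describe letters in a window and are not binding sites.

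The members were a mixed group of genes. RefSeq matched all 100, 7 of them by an older symbol, on 19 chromosomes, with 6 on the X chromosome (6% of members, 3.83% of matched genes of 10 RPM or more at E16.5). Protein-coding genes were 88 of 100, against 97.9% of the matched genes of that level, and 8 were long noncoding RNAs. The median annotated span was 28.2 kb, against 25.6 kb. By known role, 18 members are best known from neurons or sensory cells, 11 from the sperm tail, centriole or cilium, 10 from signalling, 9 are metabolic enzymes, 7 act in matrix, adhesion or membrane transport, 7 are RNA-binding, ADP-ribosylating or TRIM proteins, 6 are transcription factors, 1 is a cyclin, 12 are noncoding RNAs or pseudogenes, and 19 were not assigned. These roles were assigned after the members were known.

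No member belonged to the lists of meiotic, piRNA, germline X-linked, follicle-formation and stress genes (145 genes, 129 of them in the table). Nor did any belong to the marker lists of ovarian cell types. The meiotic lists are not complete. The members Ccnb3 and 4930404A10Rik (now Meikin) have known meiotic roles but are on none of the lists. The number of members expected on the lists was not worked out, so their absence gives no result on the members. Of 11 measured axis and synaptonemal complex genes, 7 had a score above 0, with a median of 0.09 and a highest value of 1.20 for Syce3. Sycp1, the transverse filament of the synaptonemal complex, averaged 645 ± 59.2, 1481 ± 87.4 and 766 ± 113 RPM (mean ± SD, n = 3, as for all such values below) at E14.5, E16.5 and E18.5, which is a score of 0.96. Spo11, the enzyme that makes meiotic double-strand breaks, averaged 68.9 ± 15.1, 143 ± 26.0 and 27.5 ± 7.71 RPM. It was the 1 of 7 measured double-strand break genes with a score above 0, and the median of that list was -1.30. Cohesins had 2 of 9 above 0 (median -1.08), strand exchange and repair genes 4 of 19 (-0.55), crossover genes 4 of 12 (-0.47) and follicle formation factors 0 of 8 (-1.85). Of the other list genes, Tdrd6 scored 2.05 but averaged 8.87 ± 4.65 RPM at E16.5, under the minimum of 10.

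The E16.5 libraries held RNA of germ cell markers. Ddx4 averaged 549 ± 58.7 RPM and Dazl 846 ± 58.8 RPM at E16.5. Ovarian libraries held 13.9 to 23.2 M reads (M, 1000000), libraries of the course 14.7 to 22.8 M and those of D21 4.84 to 21.3 M, and 3 reads corresponded to 0.129 to 0.619 RPM, a limit that covers counting error only. RPM are not divided by transcript length, so levels are compared between libraries and not between genes. In these bulk samples, fewer cells of a type and less RNA per cell cannot be told apart.

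Some libraries stood apart. At E16.5, replicate 2 had the highest RPM summed over the members, 9775 against 6326 and 5797 in replicates 1 and 3. It exceeded the mean of the other libraries more than 2-fold for 7 members, 5 of them noncoding RNAs or pseudogenes, against 0.339% of the 9432 genes of that level. Without it, 97 members still reached 10 RPM, the lowest score among these was 1.26, and 87 of the 100 stayed among the 100 highest. At D5, replicate 2 had the lowest sum, 971 RPM against 1415 and 1297. At D11, replicate 2 carried far more stroma marker RNA, 1875 RPM against 198 and 194.

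At E16.5 the members together took 5797 to 9775 RPM per library, against 1293 to 1612 at E14.5, 1218 to 2070 at E18.5 and 648 to 757 at P1. The median member averaged 3.82 RPM at E14.5, 26.2 at E16.5, 5.26 at E18.5 and 1.55 at P1. Scores ran from 1.70 to 3.00, the lowest a 3.24-fold excess on the RPM + 1 scale, with a median of 1.96. All 3 E16.5 libraries lay above all 6 neighbouring libraries for 99 members. The choice of members by these same libraries favours this, so it is a description and not a test. E18.5 was the higher neighbour for 74 members and E14.5 for 26. The average was under 1 RPM for 20 members at E14.5 but for 5 at E18.5.

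The limit of 100 members falls within a smooth decline of the score. Just inside it were Nrip3, Mpped1, Klf15, Irf2bpl and Ccdc67, with scores of 1.71, 1.71, 1.71, 1.71 and 1.70. Just outside it were Ccdc62, Dnaic1, Gpc2 and 2700081O15Rik, with scores of 1.70, 1.70, 1.67 and 1.66. The minimum level bears on the membership, since 61 of the 100 reached a mean of 20 RPM at E16.5.

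Tsks had the highest score. Its E16.5 libraries had 7.04, 13.5 and 15.9 RPM, against at most 0.432 RPM at E14.5 and 1.21 RPM at E18.5. Tspan10, a tetraspanin, had 11.2, 14.4 and 10.2 RPM at E16.5 and at most 0.949 RPM in any neighbouring library. Gria2, an AMPA glutamate receptor subunit, had 10.1, 14.8 and 12.4 RPM at E16.5, 0.495, 0 and 0 RPM at E14.5 and 0.216, 0.977 and 1.19 RPM at E18.5. All 3 genes were at or under 1.21 RPM in each library on either side of E16.5.

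Members with higher levels showed the same form. Ccnb3 (chrX:6979652-7041635), whose cyclin acts in the exit from the first meiotic division, had 126, 77.9 and 69.6 RPM at E14.5, 576, 624 and 531 RPM at E16.5, and 91.8, 78.0 and 146 RPM at E18.5. It then averaged 6.86 ± 1.44 RPM at P1. Maoa (chrX:16619698-16687812), the mitochondrial monoamine oxidase A, had 570, 567 and 500 RPM at E16.5, against 114 to 156 at E14.5 and 98.9 to 193 at E18.5. The E16.5 libraries of both genes lay well above the others, and replicate 2 did not stand apart in them.

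The sperm tail and cilium genes included Akap3 (chr6:126853098-126874308) with 45.5, 61.1 and 42.0 RPM at E16.5, against 3.89 to 5.38 at E14.5 and 5.58 to 6.99 at E18.5. Dnah5, a heavy chain of the ciliary outer dynein arm, had 37.9, 45.1 and 31.4 RPM, against 0.556 to 1.83 at E14.5 and 4.74 to 9.43 at E18.5. Catsper2, a subunit of the sperm calcium channel, averaged 26.4 ± 6.14, 89.1 ± 11.1 and 24.4 ± 2.45 RPM over the 3 stages. Dnah7b, an inner-arm dynein heavy chain, averaged 18.7 ± 5.97, 114 ± 14.53 and 29.8 ± 6.65 RPM, but has close paralogues, and how shared reads were counted is not given in the sources used here. E230019M04Rik, now Dnaaf6b, is annotated as a dynein assembly factor but was counted with the members not assigned to a role. It averaged 0.595 ± 0.285, 16.4 ± 4.87 and 2.94 ± 1.29 RPM.

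Among the neuronal genes, Scn3b, a sodium channel subunit, had no read at E14.5 and 12.7, 29.7 and 9.75 RPM at E16.5. Shank1, a postsynaptic scaffold protein, averaged 18.7 ± 7.19, 64.5 ± 14.51 and 4.69 ± 1.97 RPM at E14.5, E16.5 and E18.5. In signalling, Il9r, the interleukin-9 receptor, averaged 1.76 ± 0.765, 25.7 ± 6.70 and 2.63 ± 1.05 RPM and Thpo, thrombopoietin, 1.12 ± 0.865, 17.99 ± 3.61 and 1.69 ± 0.116 RPM. Other leading members were Col4a4, a basement membrane collagen chain (0.591 ± 0.0345, 14.46 ± 2.08 and 1.05 ± 0.372 RPM), and Acsl6, an acyl-CoA synthetase (1.96 ± 0.671, 15.6 ± 3.03 and 1.91 ± 0.168 RPM).

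Of the 12 noncoding RNAs and pseudogenes, 5 were more than 2-fold higher in replicate 2 at E16.5 than in the mean of the other libraries. Kcnq1ot1, the long noncoding RNA of an imprinted domain, transcribed antisense within Kcnq1 (chr7:143213111-143296547), had 376, 1409 and 372 RPM at E16.5, 3.77 times the mean of the other libraries in replicate 2. A630089N07Rik, Gm17821 and A130077B15Rik were 4.18-fold, 3.52-fold and 2.91-fold higher in that library. Without it their scores and that of Kcnq1ot1 were between 1.26 and 1.33, under the value of the last member, 1.70. Reads of an antisense gene cannot be assigned for certain, because the strand setting of the counting is not given in the sources used here. Mir17hg, the host transcript of a microRNA cluster, was even between libraries, with 78.2, 85.9 and 78.5 RPM.

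Other measured quantities also differed between these stages. Malat1, a nuclear noncoding RNA, had 35.3 to 61.3 RPM at E14.5, 251 to 299 at E16.5 and 117 to 165 at E18.5. The 13 granulosa markers summed to 39.7 to 49.4, 122 to 156 and 53.3 to 96.7 RPM, and the 11 stroma and theca markers to 7.59 to 10.8, 51.1 to 97.5 and 31.2 to 70.7 RPM. Scores were above 0 for 9 of the 13 granulosa markers but for 2 of the 11 stroma and theca markers (median -0.19), whose E16.5 and E18.5 sums overlap. The 6 germ cell markers summed to 3613 to 3817, 2885 to 3320 and 5171 to 5443 RPM, and the 6 surface epithelium markers to 82.0 to 84.1, 41.8 to 56.6 and 75.7 to 84.9 RPM, both lowest at E16.5. Of the granulosa, stroma and theca markers, Fshr, Tcf21, Cyp11a1 and Cyp17a1 were at 0 in all E16.5 libraries. Their part in the values of the members was not tested.

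**Figure D2:**
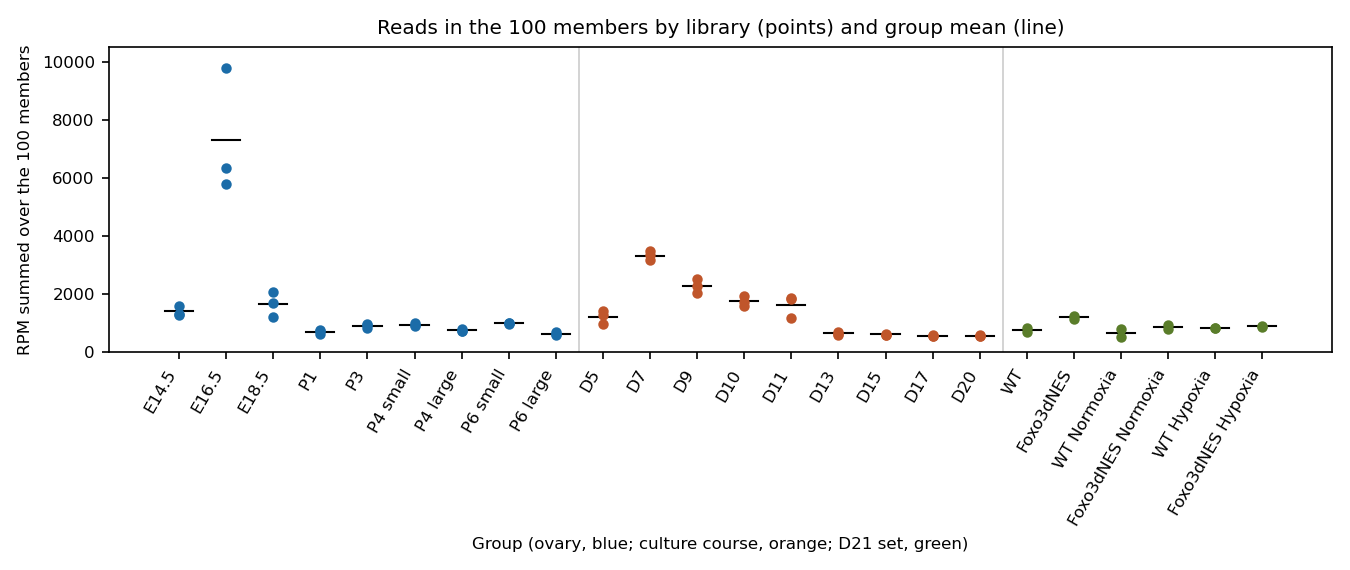
RPM summed over the 100 members (vertical axis) in each library (points), with group means (lines), for ovarian (blue), cultured (orange) and D21 (green) groups on the horizontal axis. The E16.5 libraries lie at 5797 to 9775 RPM, the D7 libraries at 3166 to 3479 RPM and the D13 libraries at 608 to 713 RPM.

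In culture most members had their highest level at D7. The highest of the 9 course means fell at D7 for 56 members, against 26.4% of the 9432 genes with 10 RPM or more at E16.5. It fell at D9 for 13, D10 for 9, D5 for 8, D13 for 5, D20 for 5 and D11 for 4 members. The members summed to 971 to 1415 RPM at D5, 3166 to 3479 at D7, 2043 to 2534 at D9 and 608 to 713 at D13. The D7 mean of a member was 35.6% of its E16.5 mean at the median, and 32 members reached at least 50%. Over the 18 ovarian and course groups, E16.5 held the highest mean for 91 members. In part this follows from the rule, which placed E16.5 above E14.5 and E18.5. Over the ovarian groups alone it held the highest mean for 97 members, against 29.2% of the 9432 genes.

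**Figure D3:**
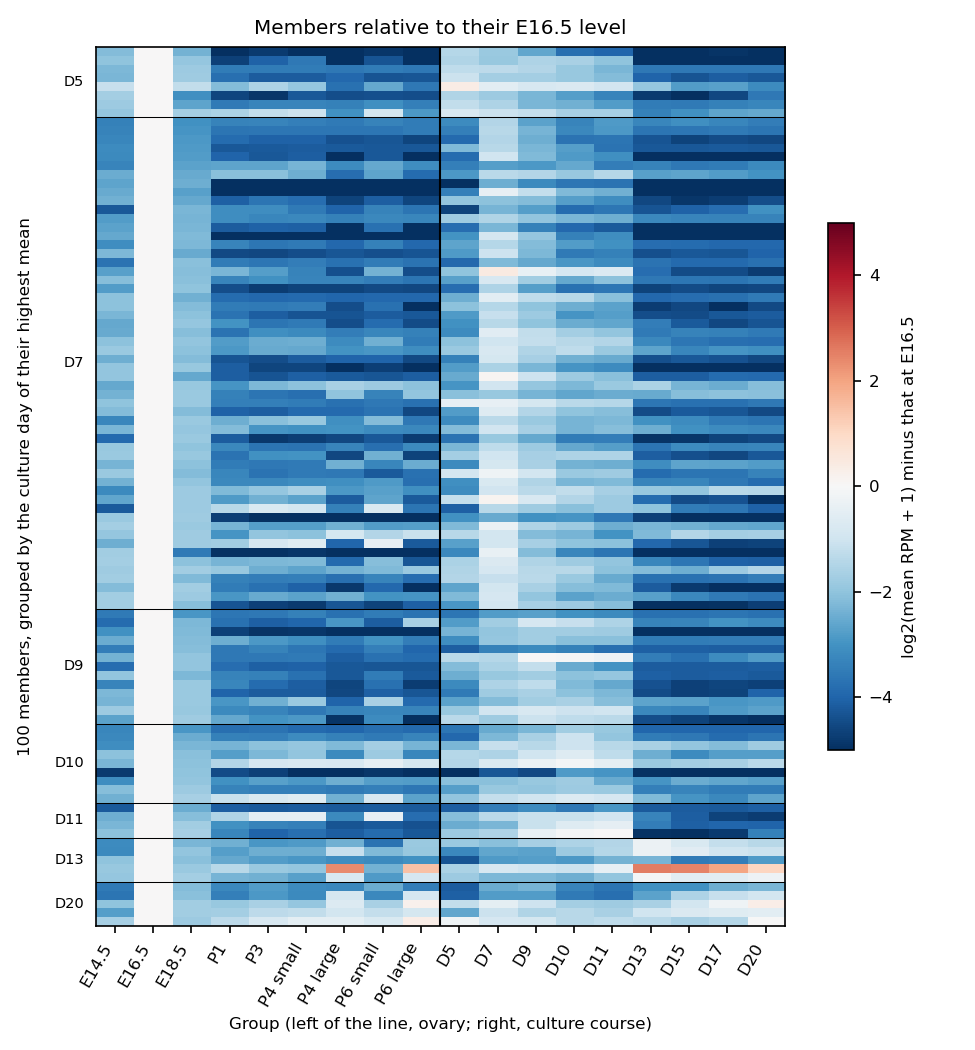
The log2(group mean RPM + 1) of each member (grouped from top to bottom by the culture day of its highest mean) minus its E16.5 value, in 9 ovarian and 9 course groups (columns), with colours limited at 5 in either direction. The E16.5 column is 0 by construction, and the 56 members of the D7 block come nearest to it in culture on that day.

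From D5 to D7, 66 of the 99 members that passed the filter rose and 0 fell, against 14.3% of 16065 genes called higher and 28.8% called in either direction. The tests were made with limma on log2(RPM + 1) over all genes with a mean of 1 RPM or more in at least 1 course group, with Benjamini-Hochberg adjusted p under 0.05, and differences on this scale understate the change of low genes. The median difference was 1.13 for the members and 0.00 for all genes. Groups did not overlap for 63 of the 66, but the share among all called genes was not counted, so this gives no result on the members. With edgeR 56 members were called higher and 1 lower, and with DESeq2 60 higher and 1 lower. Without D5 replicate 2, 56 rose and 0 fell by limma. This comparison was chosen after the D7 maximum had been seen, and its p-values rest on no more than the variation among 3 libraries a group.

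Sperm tail, centriole and cilium genes rose in 10 of 11 cases. Akap3 had 2.61, 1.49 and 3.37 RPM at D5 and 27.5, 21.7 and 24.0 RPM at D7, a difference of 2.89 (SE 0.21, limma adjusted p = 1.1e-08). All D7 libraries were well above all D5 libraries. Dnah5 rose by 2.33 (SE 0.32), Dnah7b by 2.26 (SE 0.31), Lca5l, related to the ciliary protein lebercilin, by 1.81 (SE 0.24) and Catsper2 by 1.36 (SE 0.23), with limma adjusted p from 1.7e-05 to 0.00015. Tsks went from at most 0.788 RPM at D5 to 3.43 to 4.25 RPM at D7, a difference of 1.70 (limma adjusted p = 0.00029), but was not called by edgeR (adjusted p = 0.08) or DESeq2 (adjusted p = 0.055). Ccdc67 was the exception, with a difference of -0.43 (SE 0.33, limma adjusted p = 0.35).

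Ccnb3 had 22.9, 3.24 and 19.1 RPM at D5 and 110, 97.1 and 111 RPM at D7, a difference of 3.07 (SE 0.41, limma adjusted p = 1.4e-05). Replicate 2 was the low library at D5, and without it the difference was 2.28. The D7 values were close to the E14.5 and E18.5 values of the ovary and well under the E16.5 values. Shank1 had 10.9, 0.570 and 6.74 RPM at D5 and 48.2, 45.0 and 55.0 RPM at D7, a difference of 3.26 (SE 0.42, limma adjusted p = 1e-05), which was 2.38 without D5 replicate 2.

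Among noncoding RNAs and pseudogenes, 10 of 12 rose. Kcnq1ot1 had 143, 49.9 and 118 RPM at D5 and 455, 434 and 476 RPM at D7 (difference 2.25, SE 0.29, limma adjusted p = 1.2e-05), so its libraries were even at D7, unlike at E16.5. Smarca5-ps, a pseudogene of a chromatin remodeller whose reads may be shared with its parent gene, had 14.3, 7.54 and 11.6 RPM at D5 and 97.8, 93.4 and 102 RPM at D7 (difference 3.06, SE 0.33). Mir17hg averaged 34.4 ± 2.84 RPM at D5 and 89.4 ± 6.29 RPM at D7 (difference 1.35, SE 0.29), and its D7 libraries overlapped those of E16.5. Rps15a-ps6, a ribosomal protein pseudogene, was not called (difference -0.62, limma adjusted p = 0.12).

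Metabolic enzymes rose in 7 of 9 cases. Aspa, which splits N-acetylaspartate, had 6.36, 6.09 and 5.82 RPM at D5 and 31.0, 29.7 and 29.7 RPM at D7 (difference 2.13, SE 0.24, limma adjusted p = 2.3e-06), with little spread on either day. Amy1, an amylase with a close paralogue, averaged 11.02 ± 5.30 and 64.8 ± 14.8 RPM and Maoa 76.8 ± 10.7 and 183 ± 11.2 RPM, with differences of 2.52 and 1.25. Cers4, a ceramide synthase, averaged 10.997 ± 0.956 RPM at D5 and 10.4 ± 1.94 RPM at D7 and was not called (difference -0.08, limma adjusted p = 0.89).

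Neuronal and sensory genes rose in 9 of 18 cases, signalling genes in 5 of 10 and transcription factors in 1 of 6. The transcription factor was Sox6, with 13.9, 5.57 and 13.4 RPM at D5 and 47.1, 34.6 and 40.2 RPM at D7 (difference 1.88, SE 0.25, limma adjusted p = 1.5e-05). Il9r averaged 0.790 ± 0.767 and 8.72 ± 2.62 RPM (difference 2.51, SE 0.34, limma adjusted p = 1.6e-05) and Robo2, a Slit receptor, 0.118 ± 0.129 and 2.58 ± 0.176 RPM (difference 1.68, SE 0.26). Thpo was called in the full data (difference 0.79, limma adjusted p = 0.037), but not when any single D5 or D7 library was left out (0.053 to 0.097). Gria2 and Scn3b averaged 0.914 ± 0.742 and 0.660 ± 0.510 RPM at D7 and were not called (limma adjusted p = 0.05 and 0.057, not under the threshold). The remaining groups rose in 5 of 7 cases (matrix, adhesion and transport), 5 of 7 (RNA-binding, ADP-ribosylating and TRIM proteins) and 13 of 18 (not assigned). Differences between these role groups were not tested.

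Genes of the meiotic lists were compared over the same days. From D5 to D7, 6 of 11 axis and synaptonemal complex genes rose (median difference 0.88), as did 6 of 7 genes of double-strand break formation (0.96) and 6 of 12 of crossover and resolution (0.59). Of the cohesins, 2 of 9 rose and 1 fell, and of 19 strand exchange and repair genes 9 rose and 3 fell. Sycp1 rose by 1.74 (SE 0.22, limma adjusted p = 8.4e-06). Granulosa markers summed to 48.0 to 67.5 RPM at D5 and 41.8 to 44.4 RPM at D7, and 1 of 13 was called higher and 1 lower. Stroma and theca markers summed to 7.23 to 20.1 RPM at D5 and 15.9 to 43.3 RPM at D7, and 1 of 9, Nr2f2, was called higher (difference 1.18, SE 0.35, limma adjusted p = 0.014). Endothelial markers summed to 77.7 to 100.8 and 25.3 to 53.1 RPM, with 0 of 6 higher and 2 lower. The part of other cells in the values at D7 was not tested.

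**Figure D4:**
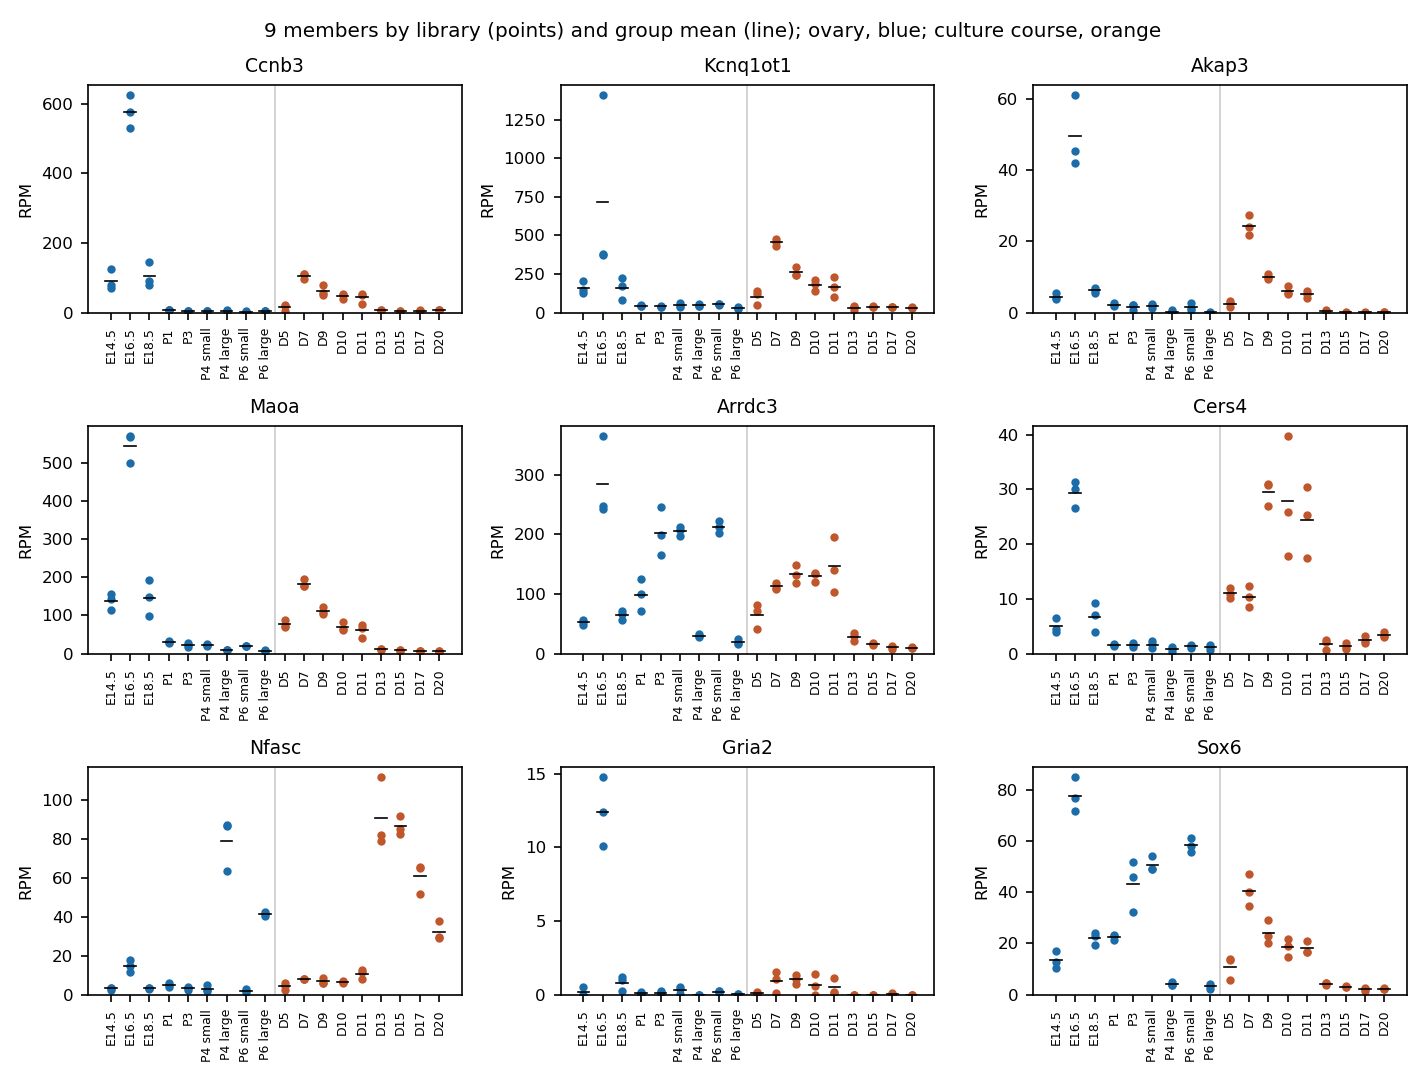
RPM (vertical axes) of 9 members in each library (points) of the 9 ovarian (blue) and 9 course (orange) groups, with group means (lines). Ccnb3, Kcnq1ot1, Akap3 and Maoa show maxima at E16.5 and D7, Arrdc3 and Sox6 return in small oocytes, Cers4 is highest in culture at D9, Nfasc is highest in large oocytes and at D13, and Gria2 stays near 0 outside E16.5.

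From D7 to D9, 4 of the 99 members rose and 32 fell, against 26.6% of genes higher and 9.7% lower, and the median difference was -0.47 against 0.17 for all genes. Shank1 went from 45.0 to 55.0 RPM at D7 to 16.3, 12.5 and 11.9 RPM at D9 (difference -1.80, SE 0.42, limma adjusted p = 0.0016). Akap3 went to 9.32, 9.93 and 10.8 RPM (difference -1.20, SE 0.21), Catsper2 to 22.5, 24.6 and 19.5 RPM (difference -1.10, SE 0.23) and Aspa to 11.9, 15.6 and 13.9 RPM (difference -1.08, SE 0.24). Trim52, Grb10, Dnah7b and Maoa fell by 1.14, 1.25, 0.96 and 0.71 on the log2 scale. For all 8 of these genes the D7 and D9 libraries did not overlap.

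The 4 members that rose were Cers4, Doc2b, Irf2bpl and Parp8. Cers4 had 10.3, 12.4 and 8.55 RPM at D7 and 26.9, 30.9 and 30.8 RPM at D9 (difference 1.43, SE 0.29, limma adjusted p = 0.00039). Its D9 libraries overlapped its E16.5 libraries, which had 30.01, 26.6 and 31.3 RPM. Doc2b, a calcium sensor of vesicle release, rose by 1.17 (SE 0.30) and Irf2bpl, a transcriptional regulator, by 1.14 (SE 0.32), but edgeR did not call these (adjusted p = 0.095 and 0.072) or Parp8 (adjusted p = 0.15). Ccnb3 averaged 106 ± 7.84 and 61.8 ± 15.2 RPM and was not called (difference -0.79, limma adjusted p = 0.13).

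Markers of other cells moved strongly between D7 and D9. Granulosa markers summed to 41.8 to 44.4 RPM at D7 and 339 to 548 RPM at D9, with 12 of 13 called higher, and stroma and theca markers to 15.9 to 43.3 and 261 to 467 RPM, with 7 of 9 called higher. Axis and synaptonemal complex genes fell in 9 of 11 cases (median difference -0.95) and double-strand break genes in 6 of 7 (-1.20). Immediate early and heat shock genes rose in 11 of 12 cases, Jun by 3.55 and Atf3 by 4.74, and Malat1 had 68.0 to 101.05 RPM at D7 and 199.8 to 320 RPM at D9. The part of these in the lower values of the members at D9 was not tested. The number of members called depended on D7 replicate 3, without which it was 20 in all.

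Compared with D5, 54 members were higher at D9 and 4 lower, against 24.2% and 8.15% of genes, with a median difference of 0.91 against 0.19. From D9 to D11, 1 member rose and 25 fell, against 5.48% and 1.99%, with a median difference of -0.57 against -0.03. This count was not stable. It was 7 without D11 replicate 3, 15, 15 and 11 without D9 replicates 1, 2 and 3, 8 with edgeR and 0 in a fit of these groups alone. Without D11 replicate 2, the library rich in stroma marker RNA, 26 were called. Maoa fell by 0.90 (SE 0.19, limma adjusted p = 0.0041) and was also called by edgeR (adjusted p = 0.0075).

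Between D9 and D13, when all genes had a median difference of -0.59, 83 members fell and 4 rose, against 53.4% of genes lower and 23.5% higher. With median-of-ratios size factors applied, the median of all genes was -0.21, and 73 members fell and 7 rose. Smarca5-ps went from 48.7, 58.2 and 59.1 RPM to 0.81, 0.364 and 1.30 RPM (difference -4.98, SE 0.33, limma adjusted p = 3.1e-12). Irf2bpl fell by 4.56, Maoa by 3.22, Akap3 by 3.08, Kcnq1ot1 by 3.05 and Ccnb3 by 2.94 on the log2 scale. Granulosa markers fell over the same days, to 10.1 to 18.9 RPM, with 12 of 13 called lower, and their part was not tested.

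The members that rose from D9 to D13 were Nfasc, Grk1, Ccdc67 and Plbd1. Nfasc (chr1:132564690-132741848), the axonal adhesion protein neurofascin, had 5.93, 5.77 and 8.70 RPM at D9 and 78.9, 82.3 and 112 RPM at D13 (difference 3.56, SE 0.22, limma adjusted p = 9e-13), above its E16.5 libraries of 11.5 to 17.6 RPM. Grk1, rhodopsin kinase, rose by 2.37 (SE 0.31), Ccdc67 by 2.18 (SE 0.33) and Plbd1, a phospholipase B-like protein, by 1.38 (SE 0.28).

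**Figure D5:**
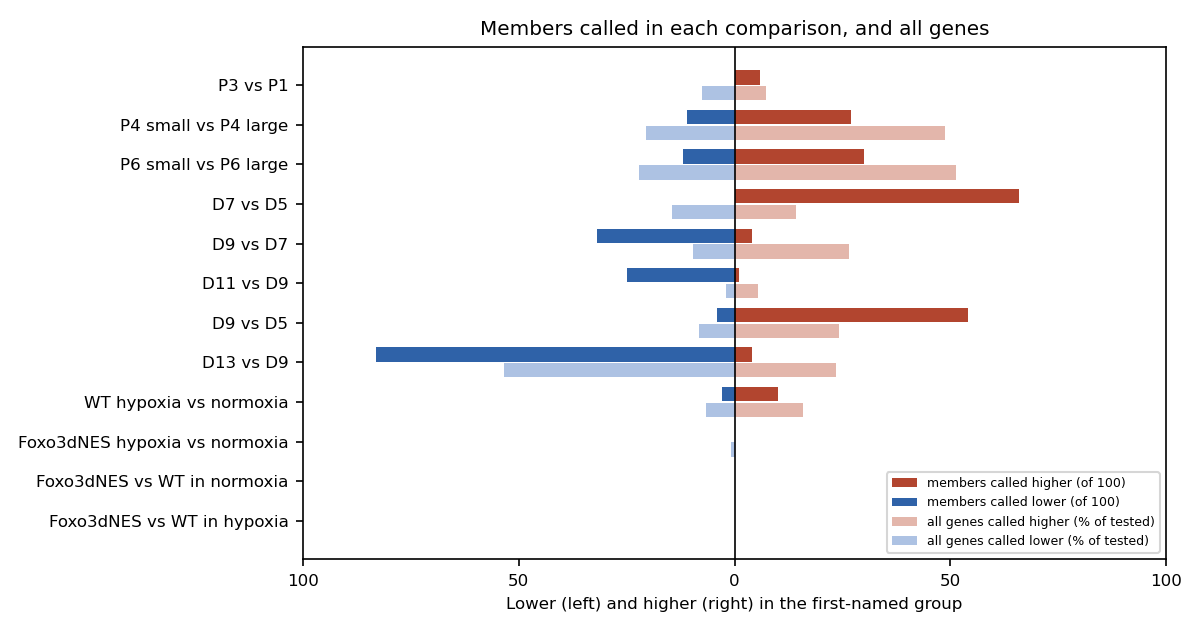
Number of members called higher (dark red, to the right) and lower (dark blue, to the left) in the first-named group of each of 12 comparisons, beside the percentage of all tested genes called (pale bars). Members exceed the background among genes higher at D7 than at D5 (66 against 14.3%) and lower at D9 than at D7 (32 against 9.7%).

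After birth most members stayed low, with a median of 1.40 RPM at P3, 4.92% of the E16.5 mean, and 42 members averaged under 1 RPM. From P1 to P3, 6 rose and 0 fell, against 7.19% and 7.45% of 15401 genes. However, 35 members averaged under 1 RPM at both P1 and P3, where a change can hardly be called. Arrdc3 (chr13:80883384-80896042) had 70.7, 125 and 99.6 RPM at P1 and 165, 246 and 198 RPM at P3 (difference 1.05, SE 0.17, limma adjusted p = 0.00031). Sox6 (chr7:115470872-116040776) had 21.5, 22.8 and 23.3 RPM at P1 and 32.5, 51.8 and 46.0 RPM at P3 (difference 0.89, SE 0.17, limma adjusted p = 0.0011). P3 libraries lay above P1 libraries for both. Grb10, an imprinted adaptor that dampens insulin receptor signalling, rose by 0.98, Ppm1e by 0.76, Dnah7b by 0.71 and Tnrc18 by 0.66.

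Small and large oocytes were compared at the same age. At P6, 30 members were higher in small oocytes and 12 lower, against 51.3% and 22.1% of genes. At P4 these counts were 27 and 11, against 48.7% and 20.5%. These shares lie under the background. But 40 members at P6 and 38 at P4 averaged under 1 RPM in both sizes and passed the filter through their E16.5 level. Such members can hardly be called, so the lower shares give no result on the contrast of small and large oocytes. For Parp8, which is in the ADP-ribosyltransferase family, this contrast differed between P4 and P6 by limma (-1.50, SE 0.31, adjusted p = 0.0043), the 1 member called of 100 where 8.52% of genes were. The germ cell markers moved in the same direction, with sums of 5169 to 5349 RPM in small oocytes and 3248 to 3354 RPM in large ones at P4, and their part was not tested. After rescaling by size factors, which moved the median of all genes from 0.41 to 0.00 at P6 and from 0.34 to 0.01 at P4, the counts were 26 and 20 at P6 and 23 and 18 at P4.

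Sox6 and Arrdc3 were the largest differences towards small oocytes. Sox6 had 55.8, 61.2 and 58.1 RPM in small oocytes and 2.30, 4.07 and 3.42 RPM in large ones at P6 (difference 3.82, SE 0.17, limma adjusted p = 2.9e-16). Arrdc3 had 212, 222 and 202 RPM in small oocytes and 24.4, 18.1 and 16.53 RPM in large ones (difference 3.38, SE 0.17, limma adjusted p = 5.4e-15). Their P6 small means were 58.4 ± 2.71 and 212 ± 9.99 RPM, against 77.9 ± 6.77 and 285 ± 69.5 RPM at E16.5. Wdr27, Irs2, an insulin receptor substrate, and Klf15, a Krüppel-like factor, were also higher in small oocytes at P6, by 2.88, 1.85 and 1.96, and at P4, by 2.43, 1.78 and 1.92.

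Nfasc was the largest difference towards large oocytes. It had 87.2, 63.6 and 86.8 RPM in large and 1.89, 5.02 and 2.34 RPM in small oocytes at P4 (difference -4.36, SE 0.24, limma adjusted p = 3e-14), and 40.2 to 42.5 and 1.55 to 2.94 RPM at P6 (difference -3.82). Large oocytes at both ages exceeded the E16.5 germ cells. 4930404A10Rik, now Meikin, a meiosis-specific regulator of kinetochores, averaged 8.98 ± 0.451 RPM in large and 0.891 ± 0.243 RPM in small oocytes at P6 (difference -2.41, SE 0.24, limma adjusted p = 1.9e-09), having averaged 16.6 ± 2.08 RPM at E16.5. Ccdc67 averaged 5.26 ± 0.766 and 0.576 ± 0.193 RPM at P6 (difference -1.99, SE 0.21). Ccnb3 was low in both, with 2.44 ± 1.20 RPM in small oocytes and 5.28 ± 0.475 RPM in large ones at P6, and was called lower in small oocytes (difference -0.92, SE 0.25, limma adjusted p = 0.0016).

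At D21, 70 of the 100 members passed the filter. In WT oocytes 10 were higher in hypoxia and 3 lower, against 15.9% and 6.55% of 14392 genes, so by limma neither share exceeded the background. However, 11 of the 70 averaged under 1 RPM in both groups, where a change can hardly be called. With edgeR 10 were higher and 9 lower, as with DESeq2, and edgeR called 3659 of the 14392 genes in either direction. The shares of all genes in each direction are given for limma only. Rescaled by size factors, 8 were higher and 4 lower. Sox6 had 4.65 and 4.94 RPM in normoxia and 16.04 and 14.05 RPM in hypoxia (difference 1.47, SE 0.23, limma adjusted p = 0.0081). Gckr, the regulator of glucokinase, had 12.8 and 16.7 RPM in normoxia and 4.80 and 5.58 RPM in hypoxia (difference -1.34, SE 0.25, limma adjusted p = 0.011), and Ccdc67 had 3.64 and 5.95 RPM and then 1.69 and 1.42 RPM (difference -1.15, SE 0.33, limma adjusted p = 0.034). The groups of these genes did not overlap.

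These counts rest on few libraries. Without either hypoxia library 0 members were called, without normoxia replicate 1 the count was 23, and without normoxia replicate 2 it was 2 higher and 4 lower. Granulosa markers summed to 124 to 292 RPM in WT normoxia and 35.1 to 43.2 RPM in WT hypoxia, blood and immune markers to 2.58 and 89.7 RPM in normoxia and 1.80 to 3.48 RPM in hypoxia, and their part was not tested. In Foxo3dNES oocytes limma called 0 members between hypoxia and normoxia (background 0.153% higher and 0.869% lower). By edgeR 4 members were called, where 365 of 14392 genes were. DESeq2 called 9, and 11 had an unadjusted p under 0.05. The shares of all genes called by DESeq2 or at an unadjusted p under 0.05 are not given here, so these counts give no result on the members. Sox6 had 9.36 and 8.66 RPM in Foxo3dNES normoxia and 20.2 and 20.6 RPM in Foxo3dNES hypoxia. The interaction test of limma for a different response of the genotypes called 0 members and 0% of genes, with 5 members at an unadjusted p under 0.05.

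Foxo3dNES and WT oocytes were also compared within each oxygen condition. Of 14392 genes edgeR called 2 in normoxia and 1 in hypoxia. The shares of all genes at an unadjusted p under 0.05, called by DESeq2 or called without a library are not given here. In normoxia limma called 0 members (background 0.00695% higher and 0% lower), with 19 at an unadjusted p under 0.05, 0 called by edgeR and 5 by DESeq2, and 21 were called when WT normoxia replicate 1 was left out. In hypoxia 0 members were called (background 0.00695% higher and 0% lower), with 0 at an unadjusted p under 0.05 and 0 called by edgeR or DESeq2.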

How the data were processed

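The deposited table gave the authors' RPM (reads per 1000000 reads) for 24062 genes in 66 libraries of poly(A) RNA. Per the submitters' processing notes, TopHat2, Bowtie2 2.0.13, featureCounts 1.5.1, R 3.4.4 and mm10 were used. The gene annotation, the strand setting and any filters are not given in the sources used here. Members, lists and comparisons were chosen with earlier results of these data known, and D7 against D5 was added after the culture maximum had been seen.

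Values were taken as log2(RPM + 1) and genes with a mean of 1 RPM or more in at least 1 group of a fit were kept. Tests used limma 3.58.1 (R 4.3.3), two-sided, with a trend on the mean and Benjamini-Hochberg adjustment over all genes of a comparison, at 0.05. There were 3 fits, of the ovarian libraries, the culture course and all D21 libraries. The D21 fit included the 4 libraries without an oxygen label, which so bear on its filter and its estimate of the spread. Each RPM value was a whole multiple of 1 read within 0.01 reads for 100% of values, so whole reads were recovered and tested with edgeR 4.0.16 and DESeq2 1.42.0. On these reads edgeR called 3813 of 16065 genes between D7 and D5, where limma called 2300 higher and 2333 lower. Other alternatives were size factors, a pseudocount of 0.25, no filter, fits of 2 groups, a replicate block and leaving out each library. The procedure was tested on simulated data. The libraries are described as biological replicates, and no pair held identical values.

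Named were the 20 members of highest score, 5 genes on each side of the limit (1 of them is not reported here), and in each comparison up to 6 called members per direction with the largest difference, no overlap and at least 5 RPM. Members named beyond these were chosen as examples after their values were seen. Of the motifs searched at start sites, GTTGCCATG and GCGCATGCG were each shortened by 1 base after a longer form had been searched.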

Additional observations from a re-analysis of the deposited data

Results flagged for a closer look

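Parp8, a member of the ADP-ribosyltransferase family, differed between P4 and P6 in its contrast of small and large oocytes. It had 0.57, 0.27 and 0.23 RPM in small and 1.55, 3.06 and 0.98 RPM in large oocytes at P4. At P6 it had 0, 0.33 and 0.36 RPM in small and 6.13, 6.90 and 5.06 RPM in large oocytes. The difference, small minus large, was -1.02 (SE 0.22, limma adjusted p = 0.00023) at P4 and -2.52 (SE 0.22, limma adjusted p = 1.4e-10) at P6. The test of the difference between these contrasts gave -1.50 (SE 0.31, limma adjusted p = 0.0043). It was the 1 of 100 members called in this test, against 8.52% of 15401 genes, and 10 members had an unadjusted p under 0.05.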

How the results depend on the processing

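Of the alternatives, DESeq2 gave 13 called members between P3 and P1, 17 between D11 and D9, 9 for Foxo3dNES hypoxia and 5 between Foxo3dNES and WT in normoxia. With edgeR there were 8 between D11 and D9 and 4 for Foxo3dNES hypoxia. A pseudocount of 0.25 gave 21 between D9 and D7, 16 between D11 and D9 and 1 for Foxo3dNES hypoxia, and a fit of the groups D11 and D9 alone gave 0. With a minimum of 20 RPM, 61 members stayed among the 100 genes of highest score. Without WT normoxia replicate 2, 6 members were called in WT hypoxia, more of them lower than higher. The cause of these changes was not tested.

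Leaving out 1 library at a time gave 4 to 9 called members between P3 and P1, 33 to 42 between small and large oocytes at P4, 38 to 41 at P6, 56 to 66 between D7 and D5, 20 to 37 between D9 and D7, 7 to 33 between D11 and D9, 50 to 60 between D9 and D5 and 81 to 87 between D13 and D9. At D21 the ranges were 0 to 23 in WT hypoxia, 0 to 21 between Foxo3dNES and WT in normoxia, and 0 to 0 for the other comparisons, where the lone library of a group was assumed to vary like the others. Membership kept 87 to 95 of 100 genes.

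Replicate numbers were not taken to pair the libraries. In 0 of the 8 comparisons with 3 pairs did every pair of deviations correlate above 0.1 (-0.332 to 0.485), and in the 4 with 2 pairs, too few to apply this rule, the correlations were -0.182, -0.275, 0.148 and -0.248. With a replicate block the counts were 6, 38, 43, 68, 36, 25, 58, 87 and 12 in the order above up to WT hypoxia, and 0 in the other D21 comparisons. A crossed pairing of the D21 libraries, chosen after seeing the data, gave 13 in WT hypoxia and 0 in Foxo3dNES hypoxia and between the genotypes in hypoxia. Of 135 values of named genes, edgeR kept 112 past the threshold, DESeq2 120, size factors 134 and the replicate block 135, and none changed sign under any alternative run. All 135 had been chosen because limma called them, so a change of sign was unlikely from the start.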

Other observations

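The long noncoding RNAs Kcnq1ot1 and A630089N07Rik and the transcripts Gm17821 and A130077B15Rik, which were highest in replicate 2 at E16.5, were each lowest in replicate 2 at E18.5 and at D5. Their E18.5 replicate 2 values were 81.9, 32.2, 96.8 and 57.4 RPM in that order. At D5 replicate 2 had 49.9, 5.22, 41.8 and 28.4 RPM. Replicate numbers have no order and do not link stages.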
